A study of Homo sapiens with 16 samples.

Results

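The genes described here are 9 interferon-stimulated genes, STAT2, IRF1, IRF7, IFIT1, IFIT2, IFIT3, MX1, OAS1 and IFI44, which were chosen by name and are represented by 16 of the 24526 probes (9 of 18631 gene symbols) of the array. All 16 probes passed the filter on dim probes, a detection p-value under 0.05 on at least 3 arrays, and 14 of them were detected on all 16 arrays. The probes ILMN_1674646 of IRF7 and ILMN_1672606 of OAS1 were detected on 7 arrays each. Expression was measured in SUM225 cells (SUM-225 in the labels), a breast cancer line with amplification of HER2, which were treated with 1 µM CP724,714, a small molecule inhibitor of the HER2 kinase. Separate cultures were taken at intervals of 3 h over 45 h, and RNA of each was hybridized to 1 array. For the medium the labels give Ham's F-12 with serum, insulin and hydrocortisone, while the study's methods name a serum-free medium lacking insulin for this line. Each of the 16 time points is thus a single culture, and without an untreated series the hours in culture and the exposure to the inhibitor cannot be told apart. All 6 luminal epithelial markers listed, ERBB2 among them, were detected on every array. Of 10 leukocyte markers 4 were detected on every array (MS4A1, CD14, LYZ and CD68) and 4 on none, PTPRC, ITGAM and NKG7 among them.

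Interferons are secreted proteins that warn cells of infection. Type I interferons bind a receptor of IFNAR1 and IFNAR2, whose kinases TYK2 and JAK1 phosphorylate STAT2 among others, and STAT2 enters a complex with IRF9 that binds the interferon-stimulated response element (ISRE) of its target genes. Interferon gamma acts mainly through another element, the gamma-activated site (GAS), and switches on IRF1, itself a transcription factor. The products of the target genes block viral replication, and several, STAT2 and IRF7 among them, belong to the pathway that induces them. Many of these genes are also transcribed at a low rate in epithelial cells that have met no virus.

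The promoters are shown first because the presence of an ISRE is the usual textbook mark of this gene group. RefSeq promoter windows (GRCh38.p14, 250 bases before to 50 bases after a transcription start) were given for 7 of the 9 genes in 11 windows. The ISRE was searched as its core, GAAA, any 2 bases and GAAA again, and the GAS as TTC, any 3 bases and GAA, each on both strands. Of all 35116 windows 3.57% held an ISRE core and 7.66% a GAS core. An ISRE core was found for IFIT1, IFIT3, IFI44 and MX1. A GAS core was found for IRF1, OAS1 and MX1, and in MX1 it overlapped an ISRE core. No match was present in the window of STAT2. The 200 bases before the start are printed for the 2 IFIT genes, whose windows hold paired ISRE cores, and for IFI44 with a single core. They are also printed for IRF1 and OAS1, with a GAS core and no ISRE core of the spacing searched. Other spacings were not counted, so the gaaacgaaa near the end of the OAS1 bases, with a single base between the repeats, is unmarked. An ISRE of OAS1 is thus not excluded. Capitals mark the matches, and each ISRE core here reads on the opposite strand as its reverse complement. IFIT1 lies at chr10:89392423-89392622 (plus strand) with cores whose first bases are 116 and 103 bases before the start. IFIT3 has one start behind chr10:89327797-89327996 (cores 156 and 122 bases before it) and another behind chr10:89332329-89332528 (cores 94 and 51 bases before it), both on the plus strand. IFI44 lies at chr1:78649589-78649788 (plus strand, core 18 bases before the start). IRF1 lies at chr5:132490774-132490973 (minus strand, GAS core 124 bases before the start). OAS1 lies at chr12:112906762-112906961 (plus strand, GAS core 168 bases before the start).
IFIT1: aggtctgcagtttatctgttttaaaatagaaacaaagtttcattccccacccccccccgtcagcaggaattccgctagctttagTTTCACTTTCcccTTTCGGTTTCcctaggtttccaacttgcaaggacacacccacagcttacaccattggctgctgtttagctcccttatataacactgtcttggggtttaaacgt
IFIT3 first start: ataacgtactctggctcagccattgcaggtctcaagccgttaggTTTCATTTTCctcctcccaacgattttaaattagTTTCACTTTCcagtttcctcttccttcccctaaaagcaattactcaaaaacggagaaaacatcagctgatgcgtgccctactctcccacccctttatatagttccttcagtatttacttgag
IFIT3 second start: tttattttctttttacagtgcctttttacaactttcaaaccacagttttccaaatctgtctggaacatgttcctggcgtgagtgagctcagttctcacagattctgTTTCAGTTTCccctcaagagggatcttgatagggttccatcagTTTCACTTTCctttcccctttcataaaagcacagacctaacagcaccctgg
IFI44: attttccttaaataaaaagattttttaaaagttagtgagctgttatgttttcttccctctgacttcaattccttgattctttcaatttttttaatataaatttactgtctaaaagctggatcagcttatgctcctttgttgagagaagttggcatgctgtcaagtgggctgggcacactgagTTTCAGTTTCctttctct
IRF1: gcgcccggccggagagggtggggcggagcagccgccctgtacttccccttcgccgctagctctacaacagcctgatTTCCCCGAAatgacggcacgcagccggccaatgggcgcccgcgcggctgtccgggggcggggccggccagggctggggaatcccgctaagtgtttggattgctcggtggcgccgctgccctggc
OAS1: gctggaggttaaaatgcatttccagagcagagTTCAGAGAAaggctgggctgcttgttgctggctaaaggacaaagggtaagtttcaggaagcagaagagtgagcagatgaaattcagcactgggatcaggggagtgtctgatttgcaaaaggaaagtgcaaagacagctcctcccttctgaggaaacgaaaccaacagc

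Transcripts of these genes were higher in the cultures harvested from 12 h to 21 h than in those harvested before, and most were lower again from 24 h on. All 16 probes had a higher signal at 12 h than at 9 h, as did 51.6% of all probes tested. All 16 had a lower signal at 24 h than at 21 h, as did 51.1% of all probes tested. The median change of the 16 probes was 0.78 on the log2 scale from 9 h to 12 h and -0.83 from 21 h to 24 h. The medians over all 16110 probes tested were 0.01 and -0.01 for the same intervals. A smaller increase, which was not tested, was present from 30 h to 33 h, where all 16 probes were higher at the later time (median change 0.26) beside 49.1% of all probes tested, and 14 were lower again at 36 h.

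**Figure D1:**
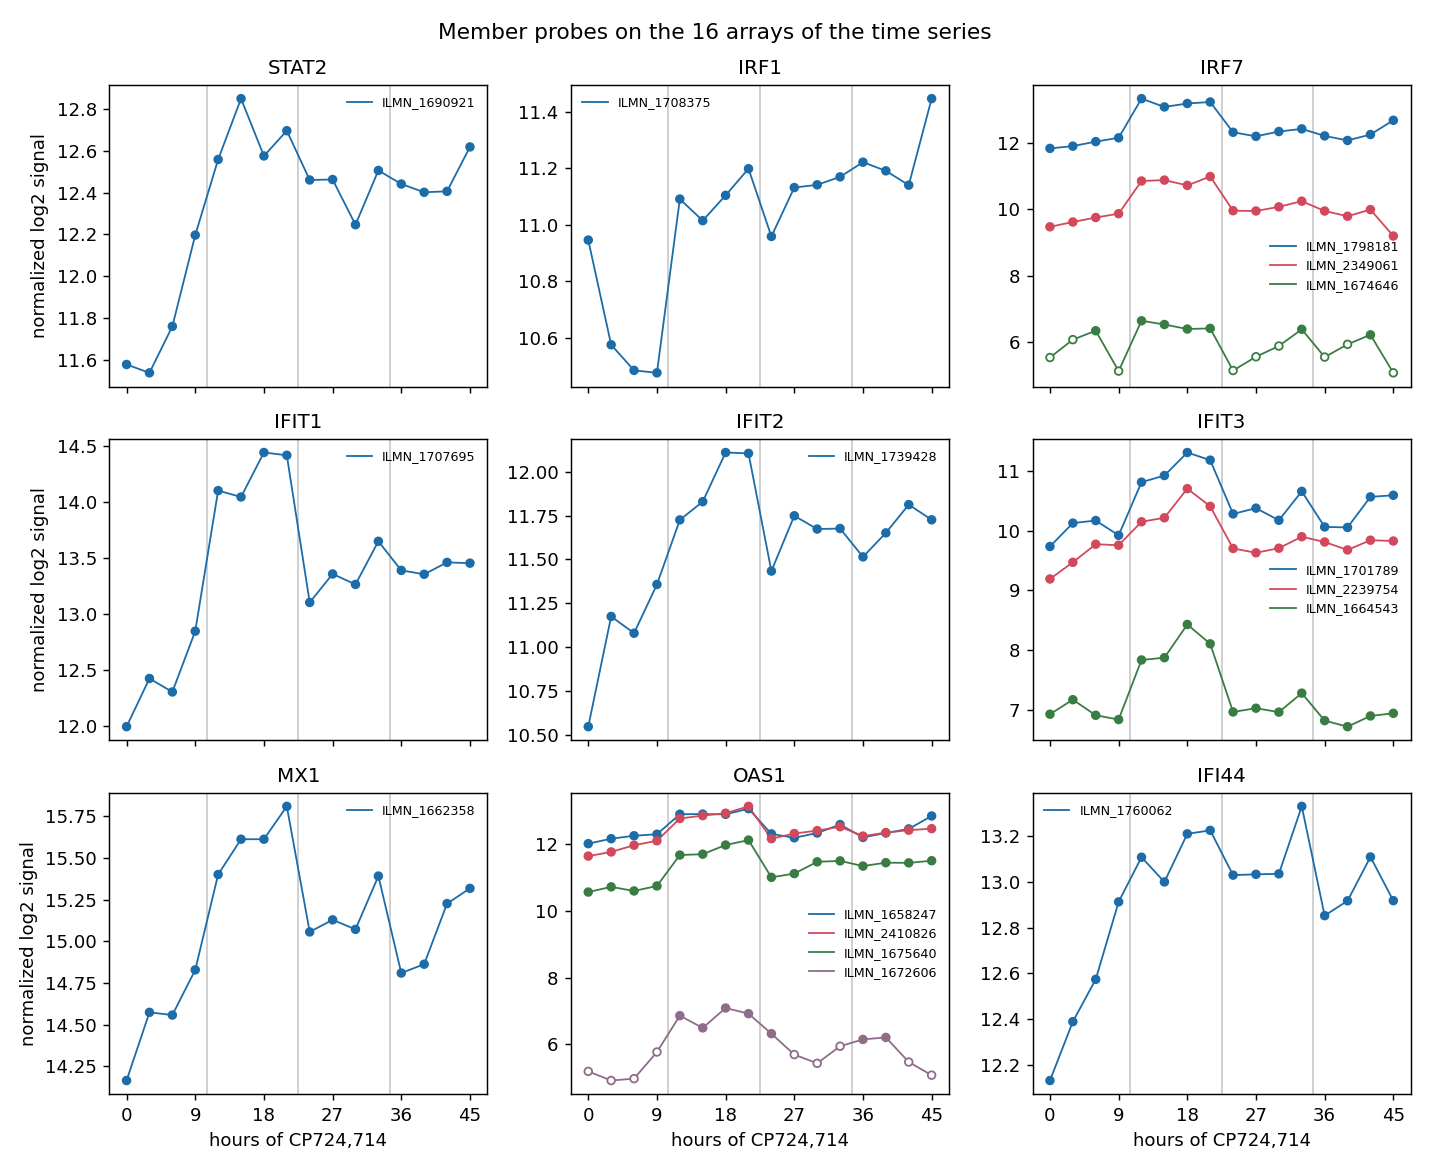
Normalized log2 signal of each probe (y axis) on the array of each time point (x axis, hours of CP724,714), one panel per gene with its own y axis. Each point is 1 array, open points had a detection p-value of 0.05 or more, and vertical lines separate the sets of 4 arrays. All arrays of the second set (12 to 21 h) lie above those of the other sets except for STAT2, IRF1, IFIT2 and IFI44. For these 4 genes, 1 or more arrays of later sets lie above the lowest of the second. The set mean of IRF1 was highest at 36 to 45 h.

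The arrays were therefore also compared in 4 sets of 4 consecutive time points, a grouping chosen after the data were seen. The first set was 0 to 9 h, the second 12 to 21 h, the third 24 to 33 h and the fourth 36 to 45 h. Boundaries lie at the changes described above, from 9 h to 12 h and from 21 h to 24 h. The p-values of the set comparisons are therefore no independent support for these changes. The arrays of a set are different time points and not replicates of a condition, so the errors of these comparisons contain any change within a set. The labels name no batch, and a difference in handling between sets cannot be told apart from time. The median raw signal of all probes was between 242 and 296 on the arrays of the first set, 294 to 361 in the second, 274 to 384 in the third and 268 to 289 in the fourth. Its part in the results was not tested. Under other scalings the direction of both set differences was the same for all 16 probes, except for IRF1 between the third and second set. That difference of IRF1 was near 0. All scalings use the same arrays, so this does not tell the signal level apart from the set. The summed level of the 6 luminal markers lay between 179665 and 194674 over the arrays, that of the 10 leukocyte markers between 2975 and 5690 and that of 8 fibroblast and endothelial markers between 359 and 564. Of these 8, COL3A1, PDGFRB and VIM were detected on no array, 4 passed the filter on dim probes, and PECAM1 was detected on all 16 arrays. Of the markers KRT8 and KRT18 fell over the 45 h, by 0.68 and 0.74 in the linear change (-0.41 for KRT18 as the mean over its 2 probes). CD14, CD68 and VWF rose, by 0.34, 0.38 and 2.51, and of these VWF was not detected on every array. The part of these markers in the results was not tested. In these whole-culture samples, fewer cells with a transcript and less of it per cell cannot be told apart.

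In limma with Benjamini-Hochberg adjustment over all probes tested, 15 of the 16 probes were higher at 12 to 21 h than at 0 to 9 h, beside 15.9% of all probes tested. The exception was the dim probe ILMN_1674646 of IRF7. The median difference was 1.06 on the log2 scale, 2.08-fold, against 0.04 over all probes tested. All 4 arrays of the second set lay above all 4 of the first for each of the 16 probes and for 12.5% of all probes tested. The return was less uniform. At 24 to 33 h 11 probes were lower than at 12 to 21 h, beside 3.36% of all probes tested, with a median difference of -0.61 against -0.01 over all probes. Both calls were made for 11 of the 16 probes and for 0.937% of all probes tested. For 12 of the 16 probes the 4 arrays of 12 to 21 h lay above all 12 other arrays, which held for 1.20% of all probes tested. The margin was small for MX1 (15.401 against 15.392) and for ILMN_1674646 of IRF7 (6.389 against 6.381). In these counts IRF7, IFIT3 and OAS1 have several probes each. By the brightest probe of each gene, all 9 genes rose and 5 fell, with median differences of 0.90 and -0.45. For 5 of the 9 genes the arrays of 12 to 21 h lay above all 12 others. None of the 16 probes was lower at 36 to 45 h than at 24 to 33 h at the threshold, beside 2.82% of all probes tested, and the median difference was 0.00. At 36 to 45 h 9 of the 16 probes were still higher than at 0 to 9 h, beside 24.9% of all probes tested, and the median difference was 0.47 against 0.05.

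**Figure D2:**
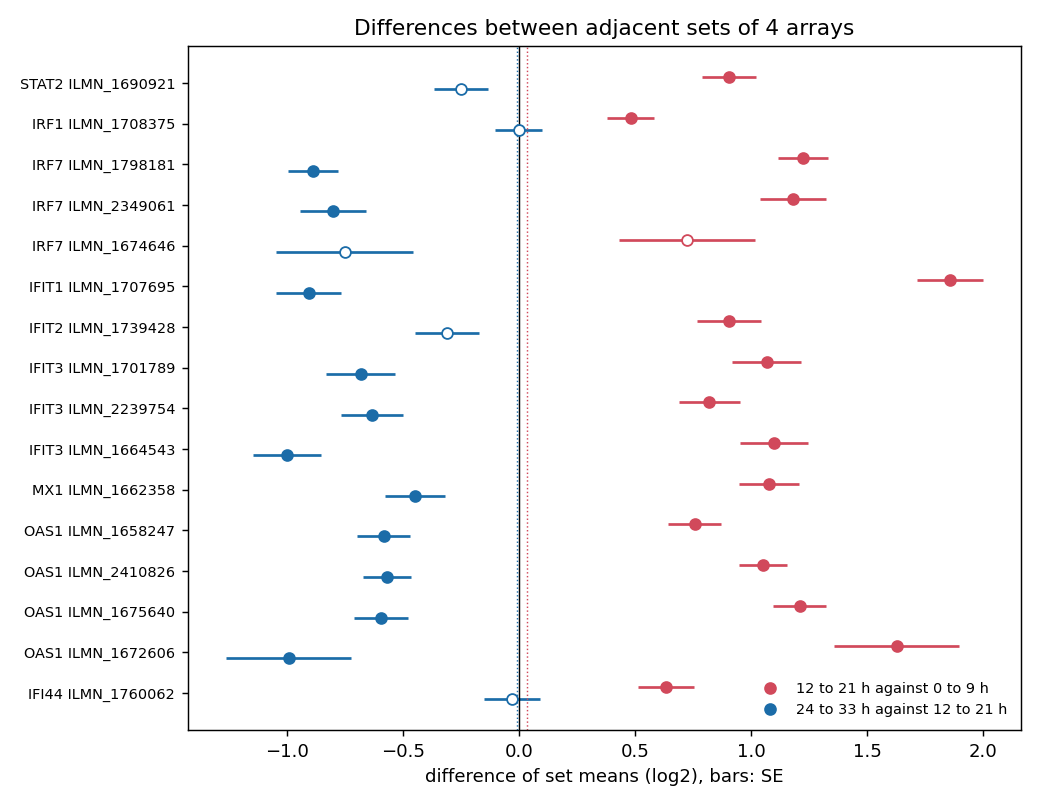
Difference between the means of adjacent sets of 4 arrays for each probe (x axis, log2) with the SE of the limma fit as bars. Filled points had an adjusted p under 0.05, dotted lines mark the median over all probes tested, and the differences of 12 to 21 h against 0 to 9 h lie between 0.48 (IRF1) and 1.86 (IFIT1).

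A cubic course in hours over all 16 arrays gave a related account without the sets. The signal of 15 probes depended on time, beside 51.3% of all probes tested. The course of 13 probes departed from a straight line, beside 19.3%. A linear trend was found for 7 probes, all of which rose over the 45 h, and rises made up 26.0% of all probes tested. Without the 0 h array the trend was found for 3 probes, and without the 3 h array for 4. None of the 16 had a falling trend, which 21.7% of all probes tested had. The median linear change of the 16 probes was 0.33, against 0.05 over all probes. Within the sets of 4 arrays, a common straight line rose for 4 probes, those of IFIT1 and MX1 and the 2 brightest of OAS1, beside 0.422% of all probes tested.

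STAT2, a subunit of the complex that binds the ISRE, rose and stayed high. Its log2 signal was 11.58, 11.54, 11.76 and 12.20 at 0, 3, 6 and 9 h, and the highest value was 12.85 at 15 h. From 24 h to 45 h it remained between 12.25 and 12.62, above every array of the first set. The difference of 12 to 21 h from 0 to 9 h was 0.90 ± 0.12 (SE), 1.87-fold, with an adjusted p of 1.23e-05 in limma. The difference of 24 to 33 h from 12 to 21 h was -0.25 ± 0.12 and did not pass the test (adjusted p = 0.230). These sets did not overlap, with at most 12.51 at 24 to 33 h and at least 12.56 at 12 to 21 h.

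IRF1, a transcription factor that interferon gamma induces through a GAS, had a course unlike the others. The signal was 10.95 at 0 h and 10.48 at 9 h, the lowest of the series. It was 11.09 at 12 h, remained between 10.96 and 11.22 until 42 h, and was highest at 45 h, where it was 11.45. IRF1 was the only one of the 9 genes whose brightest probe was highest on the last array. Its linear change was 0.67 ± 0.14 (adjusted p = 0.000744), and no departure from a straight line was found (adjusted p = 0.873). With the sets as a factor, which leaves the change within sets of 4 arrays, the linear change was 0.07 ± 0.49 (adjusted p = 0.969). The 12 to 21 h set was 0.48 ± 0.10 higher than the first (adjusted p = 0.00157), and the third set differed from the second by 0.00 ± 0.10.

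IRF7, a transcription factor that amplifies the interferon response by inducing interferon alpha genes, was measured by 3 probes. The brightest, ILMN_1798181, was between 11.82 and 12.14 in the first set, between 13.07 and 13.32 in the second, between 12.19 and 12.41 in the third and between 12.06 and 12.67 in the fourth. The 4 arrays of the second set thus stood apart from the other 12, with an abrupt change from 12.14 at 9 h to 13.32 at 12 h and from 13.22 at 21 h to 12.31 at 24 h. The rise was 1.23 ± 0.11 (adjusted p = 1.38e-07) and the fall -0.89 ± 0.11 (adjusted p = 3.72e-05). ILMN_2349061 gave like differences of 1.18 ± 0.14 and -0.80 ± 0.14, both past the threshold. The 2 probes parted at the last array, where ILMN_1798181 was 0.43 higher than at 42 h and ILMN_2349061 was 0.79 lower. The third probe, ILMN_1674646, was between 5.07 and 6.64 on all arrays and was detected on all 4 arrays of the second set, and its course did not depend on time at the threshold (adjusted p = 0.588).

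IFIT1, whose product binds viral RNA that lacks the methylation of host caps, had the largest rise of the 9 genes. Its log2 signal was 11.99, 12.42, 12.30 and 12.85 at 0, 3, 6 and 9 h. It was 14.10, 14.04, 14.44 and 14.41 at 12, 15, 18 and 21 h. The signal was 13.10, 13.36, 13.26 and 13.65 at 24, 27, 30 and 33 h, and 13.39, 13.35, 13.46 and 13.45 at 36, 39, 42 and 45 h. No array of the second set overlapped any other, and the last 8 arrays lay between the first and the second set. The rise was 1.86 ± 0.14, 3.62-fold (adjusted p = 2.96e-08), and the fall -0.91 ± 0.14, 1.88-fold (adjusted p = 0.000426). At 36 to 45 h IFIT1 was 2.03-fold higher than at 0 to 9 h (adjusted p = 8.6e-06).

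IFIT2 and IFIT3 encode relatives that form complexes with IFIT1. IFIT2 was 10.54 at 0 h, between 11.08 and 11.36 from 3 h to 9 h and highest at 18 h and 21 h (12.11 on both arrays). It rose by 0.90 ± 0.14 to the second set (adjusted p = 7.09e-05). At 24 to 33 h it was between 11.43 and 11.75, where the highest array lay above the lowest of the second set (11.73), and the difference of -0.31 ± 0.14 did not pass the test (adjusted p = 0.209). The 3 probes of IFIT3 were each highest at 18 h. The brightest, ILMN_1701789, was between 9.73 and 10.17 in the first set, 10.81 to 11.31 in the second, 10.17 to 10.66 in the third and 10.05 to 10.59 in the fourth. All 3 probes rose to the second set, by 1.07 ± 0.15, 0.82 ± 0.13 and 1.10 ± 0.15, and fell to the third, by 0.68, 0.63 and 1.00, all past the threshold. No difference of IFIT3 between 36 to 45 h and 0 to 9 h passed the test (adjusted p = 0.082, 0.152 and 0.549).

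MX1 encodes a dynamin-like GTPase that traps viral nucleocapsids, and its probe was among the brightest of the array. The raw signal was between 18191 and 64260, and at its highest it reached 89.5% of the brightest signal of that array, so a compression of the differences at 12 to 21 h was not tested. The log2 signal was 14.17 at 0 h, 14.57, 14.56 and 14.83 at 3, 6 and 9 h, and 15.40, 15.61, 15.61 and 15.81 at 12, 15, 18 and 21 h. It was 15.06 to 15.39 in the third set and 14.81 to 15.32 in the fourth, below the second set on every array. The rise was 1.08 ± 0.13, 2.11-fold (adjusted p = 5.55e-06). The fall was -0.45 ± 0.13 (adjusted p = 0.0397) and did not pass the test when any one of the arrays of 15, 18, 21, 24, 27 or 30 h was left out (adjusted p between 0.0790 and 0.119), or when dim probes were not filtered out.

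OAS1 makes short oligoadenylates when it binds double-stranded RNA, and was measured by 4 probes. The 3 bright probes were highest at 21 h (13.06, 13.13 and 12.12) and lowest at 0 h (12.01, 11.64 and 10.56). They rose by 0.76 ± 0.11, 1.05 ± 0.10 and 1.21 ± 0.12 to the second set and fell by 0.58, 0.57 and 0.59 to the third, all past the threshold. The dim probe ILMN_1672606 was detected on all 4 arrays of the second set and on none of the first, with differences of 1.63 ± 0.27 (adjusted p = 0.000169) and -0.99 ± 0.27 (adjusted p = 0.0291). The latter did not pass the test when any one of the arrays of 12, 18, 21, 27, 30 or 33 h was left out (adjusted p between 0.0588 and 0.112). In the last set 2 of the bright probes were still higher than in the first, ILMN_2410826 by 0.50 and ILMN_1675640 by 0.78 (adjusted p = 0.000617 and 2.15e-05), while ILMN_1658247 was 0.28 higher (adjusted p = 0.0534).

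IFI44 encodes a cytoplasmic protein that interferon alpha induces. Its signal was 12.13, 12.39, 12.57 and 12.91 at 0, 3, 6 and 9 h. The change was small at the boundaries of the second set, 0.19 from 9 h to 12 h and -0.20 from 21 h to 24 h. At the boundary from 33 h to 36 h it was -0.48, the largest between adjacent arrays for this gene. The signal was at most 13.22 in the second set and between 13.03 and 13.33 in the third, and these sets overlapped. The rise to the second set was 0.63 ± 0.12 (adjusted p = 0.000619) and the next difference was -0.03 ± 0.12. The 4 genes with no fall past the threshold at 24 to 33 h were thus STAT2, IRF1, IFIT2 and IFI44, and a difference between these and the other 5 genes was not tested.

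**Figure D3:**
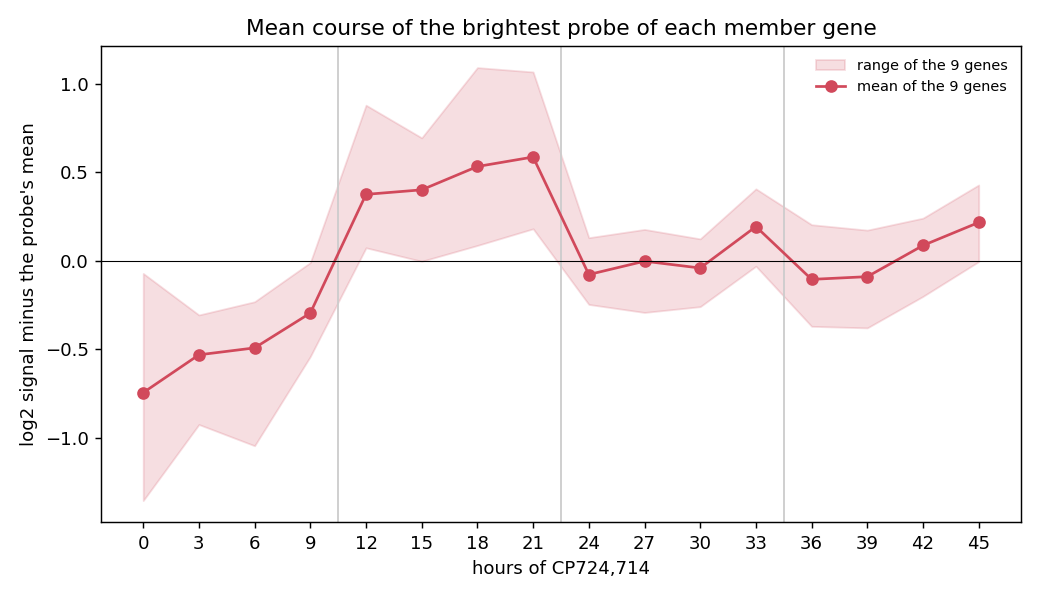
Mean course of the 9 genes (points, brightest probe of each, log2 signal minus the mean of that probe over 16 arrays) with the range over the genes as the band, against hours of CP724,714. The mean was -0.75 and -0.30 on the first and last array of the first set, 0.37 and 0.59 on those of the second, and -0.08 at 24 h.

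The courses of the brightest probes were alike among most of the genes. Over the 36 pairs of genes, Pearson r across the 16 arrays was between 0.42 and 0.95 with a median of 0.86. The arrays are shared by all genes and fall into the 4 sets, and after the mean of each set was removed r was between -0.48 and 0.88 with a median of 0.49. The closest pairs after that were IFIT1 with IFI44 (0.88), IFIT1 with IFIT2 (0.85) and IRF7 with OAS1 (0.84). IRF1 was the least alike, with r between 0.42 and 0.67 to the other genes, and between -0.48 and 0.14 once the set means were removed. Among genes outside the 9, the mean course was most like those of OAS2 (r = 0.992), IFI44L (0.977), XAF1 (0.956), IFI6 (0.954) and the transcript annotated FLJ20035 (0.952). Gene by gene, the most alike was OAS2 for MX1 (0.987), IFI6 for IFIT1 (0.968), IFITM2 for both IRF7 (0.932) and OAS1 (0.938), and ISGF3G, the older symbol of IRF9, for IFI44 (0.956). STAT2 was most like the translation elongation factor EEF2 (0.967), IRF1 most like TMEM150 (0.965) and IFIT2 most like LY96, a co-receptor of TLR4 (0.948).

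Most ligands of the pathway were not detected. Of 21 interferon genes on the array 13 were detected on no array, IFNG among them, and 7 were tested. IFNA8 and IFNL1 (IL29 on the array), a type III interferon, were detected on all 16 arrays, with raw signals of 747 to 1481 and of 227 to 409. None of the 7 had a course that depended on time, and none differed between the first 3 sets at the threshold in either step. At 36 to 45 h 1 of the 7, IFNL1, was lower than at 0 to 9 h, with a difference of -0.62 (adjusted p = 0.00773). IFNL1 had a falling linear trend of -0.57 ± 0.22 (adjusted p = 0.0422), which with the sets as a factor was 1.39 (adjusted p = 0.448). The linear change of IFNA8 was -0.25 ± 0.11 (adjusted p = 0.063). IFNB1 was detected on 5 arrays and differed by -0.06 ± 0.28 between the second and the first set. The genes of the interferon alpha family are near copies of each other, so which of them a probe measured is uncertain.

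All 12 genes of the receptors and of JAK-STAT signalling were detected on every array. From the first to the second set 8 of them rose and none fell, and none changed past the threshold from the second to the third. Over all probes tested, 15.9% rose in the first of these steps and 3.36% fell in the next. IRF9 rose by 1.07 ± 0.15 (adjusted p = 2.43e-05), followed by -0.20 (adjusted p = 0.490). Over the 45 h 6 of the 12 had a rising linear trend, against 26.0% of all probes, and 1 of the 12 with the sets as a factor. The largest rises were those of IL10RB (1.05 ± 0.09), a subunit of the type III interferon receptor, IFNAR1 (1.01 ± 0.13) and IRF9 (0.86 ± 0.14). IFNLR1, the other subunit of the type III receptor, fell by 1.06 ± 0.19. IFNAR2, the partner of IFNAR1, had a linear change of 0.28 ± 0.14 that did not pass the test (adjusted p = 0.114).

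Of 51 other interferon-stimulated genes listed, 49 were on the array and were tested. From the first to the second set 38 of them rose and none fell, and from the second to the third 19 fell and none rose. Of all probes tested 15.9% rose in the former step and 3.36% fell in the latter. The median differences were 0.69 and -0.31, against 0.04 and -0.01 over all probes tested. For 18 of the 49 all 4 arrays of the second set lay above all 12 other arrays, beside 1.20% of all probes tested. OAS2, which makes oligoadenylates like OAS1, rose by 1.37 ± 0.14 and fell by 0.63. XAF1, which promotes apoptosis, rose by 1.71 ± 0.14 and fell by 0.48. The antiviral factors SAMD9L (1.63 ± 0.25) and TRIM22 (1.58 ± 0.22) had large rising linear changes. Linear trends rose for 25 and fell for 5, beside 26.0% and 21.7% of all probes tested. With the sets as a factor they rose for 9, beside 0.422% of all probes tested, and fell for 0. The largest falls were those of LAMP3 (-2.06 ± 0.39), a lysosomal membrane protein, the exonuclease ISG20 (-1.05 ± 0.17) and IFI30 (-0.59 ± 0.11), a lysosomal thiol reductase. LAMP3 was detected on 11 arrays, and it too was higher at 12 to 21 h than at 0 to 9 h (1.00 ± 0.22) before it fell by 1.78. With the sets as a factor its linear change was -1.30 (adjusted p = 0.598).

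**Figure D4:**
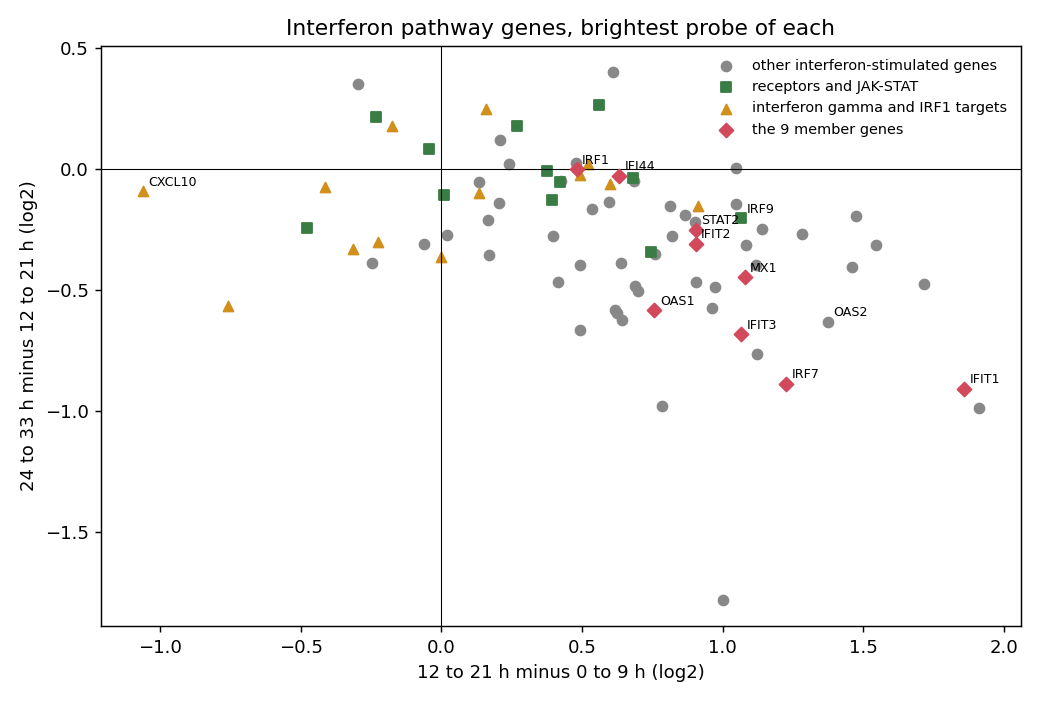
Each point is 1 gene (brightest probe) with its difference of 12 to 21 h minus 0 to 9 h on the x axis and of 24 to 33 h minus 12 to 21 h on the y axis (log2). Both axes share the 12 to 21 h arrays, so a higher second set moves a point to the right and down at once, and IFIT1 lies at 1.86 and -0.91 while CXCL10 lies at -1.06 and -0.09.

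Genes that interferon gamma or IRF1 is known to induce did not move together. Of 18 listed 13 were tested, and 4 rose and 3 fell from the first to the second set, with a median difference of 0.00. Of all probes tested 15.9% rose in this step, and the share that fell was not counted, so the 3 falls have no background beside them. Linear trends rose for 6 and fell for 6, against 26.0% and 21.7% of all probes tested, and with the sets as a factor rose for 0 and fell for 0. TNFSF10, which encodes the death ligand TRAIL, GBP4, a guanylate-binding GTPase, and APOL2 had the largest rises (0.90 ± 0.11, 0.83 ± 0.13 and 0.78 ± 0.13). That of APOL2 is of the brightest of its 3 probes, over which the mean was 0.29. FAS, a death receptor, CXCL10, a chemokine that draws T cells, and GBP1 had the largest falls (-1.95 ± 0.23, -1.53 ± 0.22 and -1.38 ± 0.25). FAS was detected on 8 arrays. CXCL9, CXCL11, IDO1, GBP5 and CIITA were detected on at most 2 arrays and were not tested.

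The sensors of viral nucleic acid that lie upstream of the interferons were mixed. Of 17 sensors and adaptors 13 were tested, and 5 rose and 3 fell from the first to the second set. Of all probes tested 15.9% rose there, and the share that fell was not counted. Linear trends went both ways, as they did over all probes tested (26.0% rising and 21.7% falling). They rose for 3 and fell for 4, and with the sets as a factor for 0 in either direction. DHX58 and IFI16 had the largest rising linear trends (1.38 ± 0.13 and 1.03 ± 0.19), followed by IFIH1, a sensor of double-stranded RNA (0.59 ± 0.19). TRAF3, MAVS and STING1, which pass the signal of such sensors on, had the largest falling trends (-1.21 ± 0.21, -0.54 ± 0.17 and -0.43 ± 0.16). The 5 that rose to the second set were IFI16 (1.42 ± 0.19), DHX58 (1.07 ± 0.20), IFIH1 (0.98 ± 0.10), RIGI (0.76 ± 0.14) and MYD88 (0.58 ± 0.10). Each had an adjusted p of 0.000572 or less. Of the other IRF factors 7 of 8 were tested, with a rising linear trend for IRF5 (1.61 ± 0.18) and a falling one for IRF3 (-0.65 ± 0.16), the factor that induces interferon beta. Of 13 negative regulators 10 were tested, with rising trends for CISH (1.26 ± 0.22) and the phosphatase PTPN6 (0.60 ± 0.13) and a falling one for PTPN11 (-0.37 ± 0.09). SOCS3 was detected on no array, and the linear change of SOCS1 was -0.78 ± 0.39 (adjusted p = 0.109).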

How the data were processed

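Total RNA of each SUM225 culture was hybridized to 1 Illumina bead array per time point, giving 16 arrays. The deposited table gives a linear signal intensity for each probe and array, deposited by the authors without background correction or normalization (the lowest signal was 111), and a deposited detection p-value. The study's methods name quantile normalization as a later step. The scanning software is not given in the sources used here, and the table gives no probe sequence. All columns of per-sample values were used.

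Signals were corrected with normexp, the negative controls being inferred from the detection p-values, with an offset of 16, quantile normalized and log2 transformed (neqc of limma 3.58.1, R 4.3.3). The offset reduces the differences of dim probes. Tests were run on the 16110 probes that at least 3 arrays detected (p under 0.05). A cubic polynomial in hours was fitted with limma (eBayes with trend), with F-tests of the whole course and of its curvature and the first-order term given as the linear change over 45 h. The sets of 4 arrays were compared by the same tools, as a grouping added after the data were seen. All tests were two-sided, at a Benjamini-Hochberg adjusted p of 0.05 over all probes tested. The fits were also run on simulated data with independent noise on each array. That noise was not shared between neighbouring arrays, so the simulation says nothing about differences in handling between sets. The error comes from deviations around the course or set mean, and precision is limited by how many arrays there are.

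The members, the gene lists and the tests were chosen with earlier results of these data known. Of several probes of a gene the brightest was used for lists. Genes were named by rule: all member probes, for each list, the 3 most strongly rising and the 3 most strongly falling genes by linear change that passed the test, IRF9, the markers, and the genes with the most similar courses. Some genes that this rule names are not reported here. Others named (among them RIGI, SOCS1, IFNB1, IFNAR2 and undetected genes) were chosen after their values were seen. Of 173 listed genes 170 were found on the array, 16 of them by an older symbol in RefSeq (GRCh38.p14). Promoter windows were searched with Python 3.11.15 and figures drawn with matplotlib 3.10.9. The alternatives were no background correction, an offset of 50, median scaling, cyclic loess, other filters, a step between 21 h and 24 h, array weights, other courses, the sets as a factor, the mean over the probes of a gene, and each array left out in turn.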

Additional observations from a re-analysis of the deposited data

How the results depend on the processing

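Of 1194 recomputed values, 1121 kept both their sign and the side of the threshold they were on (counts within 1.5 times), among them every recomputed count of time-dependent and curved probes and of both set differences. With each array left out in turn, 14 to 15 probes were time-dependent, 11 to 14 departed from a straight line, 15 to 16 were higher at 12 to 21 h than at 0 to 9 h and 9 to 11 were lower at 24 to 33 h. The linear trend was less stable. Against 7 probes, it was found for 15 when a step after 21 h was added to the fit, for 4 with a straight line alone, for 4 with the sets as a factor, and for 3 (without the 0 h array) to 8 with an array left out, 4 of them without the 3 h array. With the sets as a factor, 9 and not 25 of the other interferon-stimulated genes rose. The linear changes that turned in sign had not passed the test. With the step, those of ILMN_2349061 and ILMN_1674646 (IRF7) and ILMN_1664543 (IFIT3) were 1.66, 1.82 and 1.74. With the sets as a factor they were 0.18, 0.42 and 0.85, and that of ILMN_1672606 (OAS1) was -1.04. Array weights gave 0.042 for ILMN_2349061. With an array left out, the linear change lay between -0.15 and 0.25 for ILMN_1798181, -0.52 and 0.12 for ILMN_2349061, -0.030 and 0.35 for ILMN_1701789, -0.14 and 0.19 for ILMN_2239754, and -0.20 and 0.52 for ILMN_1672606. The difference of 24 to 33 h from 12 to 21 h was 0.013 by median scaling and 0.0045 by cyclic loess for IRF1, and with an array left out between -0.030 and 0.045 for IRF1 and -0.10 and 0.0012 for IFI44. The cause was not tested. No paired analysis was possible because there was only 1 array per time point. Probes near background, such as ILMN_1674646 and ILMN_1672606, give the least precise differences.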
